A study of Homo sapiens with 41 samples.

Results

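The comparison set apical cultures exposed to spherical gold nanoparticles at the number 500 against apical cultures with no particles, 3 libraries in each group, so that 6 of the 41 libraries in the series were its members. They were taken by sample title: Spheres_500_Apical and Control_Apical. Both groups held A549, a human lung adenocarcinoma line used as an alveolar epithelial cell, and differentiated THP1, a monocytic leukaemia line used as a macrophage, and both were kept at the air-liquid interface. The exposed group carried the treatment Au spherical NP for 24 h and the other group was the negative control of the same compartment. The labels give no unit for the number 500. The lower, basolateral compartment of the model held the endothelial line EA.hy296. The title of the series speaks of a tetra-culture, and no mast cell line is named in the labels. Each group is a model of established lines, with no primary alveolar cell. The study's design text names 3 biological replicates. No p-value here measures more than the spread between 3 such cultures in each group. The p-values of fits over all 21 apical libraries, named where given, rest on the spread in the other particle groups as well.

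Inhaled particles that reach the alveolus meet a thin epithelium and the macrophages that patrol it, and endothelial cells lie behind. Epithelial cells and macrophages answer many particles and microbial products through NF-kB, a transcription factor held in the cytoplasm by inhibitor proteins. Its targets include CXC chemokines, which draw neutrophils, the prostaglandin enzyme PTGS2, and its own inhibitors, which close the loop. Gold is taken up by endocytosis and stored in lysosomes, and metal stress is known to act on metallothioneins through MTF1 and on antioxidant genes through NRF2.

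The promoters of the 6 CXC chemokines described here are shown because their genes lie together on chromosome 4 and carried 71.3% of the summed CPM of the NF-kB cytokine list in control and 72.3% in spheres 500. Each sequence is a run of 60 bases, on the gene's strand, from the 250 bases before the start site in RefSeq (GRCh38.p14). The last motif match of each begins 91 bases before the start site in CXCL8, 90 in CXCL5, 89 in CXCL6 and 53 in CXCL1, CXCL2 and CXCL3. Capitals mark matches to GGNNTTTCC, an NF-kB type motif, searched on both strands.
CXCL8 (chr4:73740453-73740512, plus strand): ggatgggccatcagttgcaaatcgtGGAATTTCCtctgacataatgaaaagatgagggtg
CXCL1 (chr4:73869315-73869374, plus strand): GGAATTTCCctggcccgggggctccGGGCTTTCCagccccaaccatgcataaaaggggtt
CXCL2 (chr4:74099214-74099273, minus strand): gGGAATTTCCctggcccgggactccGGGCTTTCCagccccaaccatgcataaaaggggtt
CXCL3 (chr4:74038708-74038767, minus strand): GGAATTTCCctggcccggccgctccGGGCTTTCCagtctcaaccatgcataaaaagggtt
CXCL5 (chr4:73998733-73998792, minus strand): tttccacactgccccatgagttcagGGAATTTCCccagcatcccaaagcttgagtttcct
CXCL6 (chr4:73836564-73836623, plus strand): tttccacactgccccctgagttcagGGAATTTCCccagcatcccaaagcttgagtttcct
CXCL1, CXCL2 and CXCL3 held 2 matches each and the others 1. Among all 35116 promoter windows of 300 bases 6.26% held a match. Counted by gene, 8 of 15 in the NF-kB cytokine list had a match in any of their windows. In the list of NF-kB subunits and feedback inhibitors 14 of 15 did. A gene with several windows has more room for a match, so the share of windows is not a like background for these counts. A match describes letters in the window and shows no binding.

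The libraries held 5243388, 9878141 and 8465710 counts in control replicates 1, 2 and 3, and 8133780, 8672861 and 7446965 in spheres 500. Levels are given in CPM (counts scaled to the library total), and 3 counts amounted to between 0.304 and 0.572 CPM. Apical libraries of the series were parted into 3 sets of 7 by KIT, the stem cell factor receptor and a mast cell marker. The sets formed whatever the particle and cut across the comparison. They followed the replicate number in part. The first set, that of the highest KIT, held replicate 1 of every apical group and no other library. Replicates 2 and 3 lay in the middle set or the set of low KIT. On the first principal component of log2 CPM the set of low KIT stood apart, at 37.7 to 47.9. The first and middle sets lay next to each other there, at -41.2 to -21.7 and -20.7 to -4.40. KIT stood at 760, 471 and 120 CPM in control replicates 1, 2 and 3, and 850, 453 and 459 CPM in spheres 500. The third control library therefore belonged to the set of low KIT (103 to 138 CPM), and no spheres 500 library did. Spheres 500 replicates 2 and 3 both belonged to the middle set (444 to 513 CPM), and replicate 1 of each group to the first (760 to 973 CPM). Spheres 500 replicates 2 and 3 were also the closest pair, with a chi-square per degree of freedom of 3.82 over genes, against 11.3 to 25.2 for the other pairs within a group. In rods 500, another particle group, replicate 1 lay in the first set, replicates 2 and 3 in the set of low KIT and none in the middle set, the reverse of spheres 500. Whether a library of one group carries the label of the other was not tested. What the sets are is not given in the labels. For the gene lists, and for most log2 fold changes below, the value with the set as a term over all 21 apical libraries is printed too, and list medians are also given without control replicate 3.

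**Figure D1:**
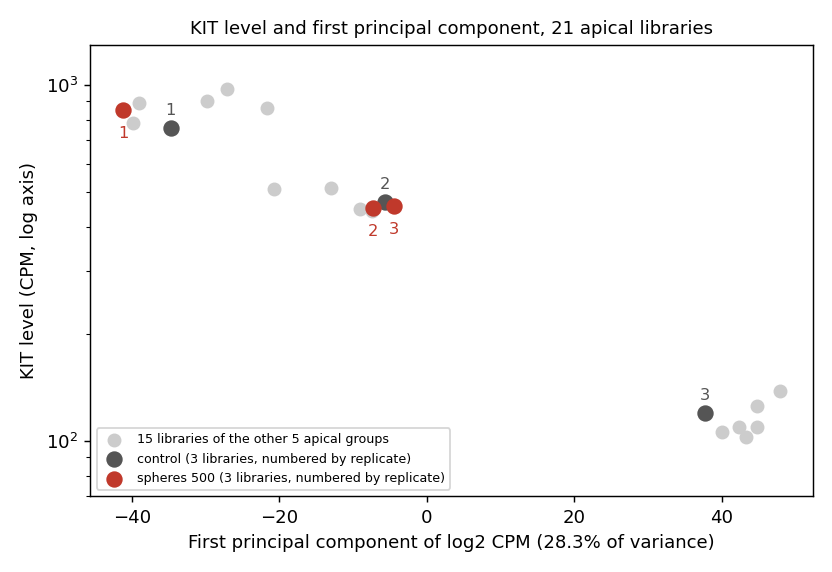
KIT level in CPM on a log axis against the first principal component of log2 CPM, which held 28.3% of the variance, for 21 apical libraries, with the replicate number beside control and spheres 500 points. Control replicates 1, 2 and 3 lie in 3 different sets of KIT level, while spheres 500 replicate 1 lies in the first and replicates 2 and 3 in the second.

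The cultures carried the markers of their named lines in part. KRT8, an epithelial keratin, stood at 2403, 2577 and 2504 CPM in control and 2652, 2704 and 2757 CPM in spheres 500. The surfactant and alveolar genes SFTPA1, SFTPA2, SFTPC, NKX2-1 and AQP5 had no read in any of the 6 libraries. LYZ, the lysozyme of macrophages, was at 452, 520 and 488 CPM in control and 568, 571 and 518 CPM in spheres 500, and CD14, the lipopolysaccharide co-receptor, at 22.3, 23.5 and 32.6 against 21.6, 22.02 and 29.01 CPM. The summed macrophage markers were 903 ± 74.3 CPM in control and 949 ± 38.4 CPM in spheres 500 (SD, n = 3), with an exact permutation p of 0.5 (0.6 adjusted over 6 marker lists), and 9 of 14 tested members were lower, with a median log2 fold change of -0.09. That median was 0.02 with the library set and 0.12 without control replicate 3, on the other side of 0. The summed alveolar epithelial markers were 4173 ± 185 and 4507 ± 152 CPM (exact permutation p = 0.2, 0.4 adjusted), and 6 of 11 tested members were lower, with a median of -0.03 that was 0.03 with the library set and 0.06 without control replicate 3. With 3 libraries against 3, this two-sided test cannot go below 0.1.

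No gene was called between spheres 500 and control: 0 of 14124 genes had an adjusted p under 0.05 in edgeR's quasi-likelihood test with Benjamini-Hochberg adjustment (0.0%). At an unadjusted p under 0.05 stood 198 genes that were higher (1.4%) and 260 that were lower (1.84%) in spheres 500. DESeq2 and the fit with no filter on low counts each called 2 genes, described below, and limma-voom called 0. The standard error of log2 fold changes had a median of 0.18. On counts simulated for this comparison the test recovered 10 of 67 genes changed 1.5-fold, 42 of 67 changed 2-fold and 59 of 66 changed 4-fold. Changes of 1.5-fold or less would therefore mostly not be detectable at this depth and number of libraries. The groups did not overlap in CPM for 899 genes that were higher (6.37%) and 483 that were lower (3.42%). With the library set as a term 0 of 15225 genes were called (0.0%), and 205 higher (1.35%) and 186 lower (1.22%) stood at an unadjusted p under 0.05. Of the 198 and 260 genes, 84 higher (42.4%) and 77 lower (29.6%) were among these. The shares of 1.4% and 1.84% are the background for each list count at an unadjusted p under 0.05 between spheres 500 and control. Everything that follows is a description of genes that did not pass the adjusted threshold, at an adjusted p of 1.00 in edgeR's test unless another is given.

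The genes with the smallest unadjusted p whose groups did not overlap included a growth factor receptor, a pair of extracellular proteins and parts of the actin skeleton on the lower side. These genes, and those on the higher side below, were chosen by small p and lack of overlap. Neither trait is therefore further support for them. EGFR, the receptor for epidermal growth factor (chr7:55019021-55211628, GRCh38), was at 378, 328 and 421 CPM in control and 252, 273 and 286 CPM in spheres 500. Every exposed library lay below every control library. The log2 fold change was -0.50 ± 0.11 (SE; unadjusted p = 0.00152 in edgeR), but -0.24 ± 0.16 with the library set as a term and -0.40 without control replicate 3. Within the first set EGFR differed by -0.59 and within the second by -0.23 (log2 ratios of CPM with 0.5 added, with no test).

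TANC2, a scaffold protein of synapses and cell contacts, was at 169, 163 and 170 CPM in control and at 141, 127 and 132 CPM in spheres 500. Its log2 fold change was -0.35 ± 0.08 (-0.22 with the library set). PAPPA, a protease that frees insulin-like growth factors from their binding proteins, stood at 559, 546 and 601 against 445, 368 and 462 CPM (log2 fold change -0.45, and -0.24 with the library set). FBN1, the main protein of matrix microfibrils, stood at 45.01, 27.4 and 35.4 against 23.1, 17.99 and 20.7 CPM, a log2 fold change of -0.82 ± 0.19 (-0.49 ± 0.28 with the library set). For PAPPA and FBN1 the highest exposed library lay under the lowest control library.

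MYH9, the heavy chain of nonmuscle myosin IIA, was at 795, 684 and 750 CPM in control and 656, 552 and 576 CPM in spheres 500. AFAP1, which links actin filaments to SRC, was at 46.2, 47.8 and 55.8 against 39.3, 36.4 and 34.5 CPM. KIAA1199, now named CEMIP and needed for hyaluronan breakdown, was at 99.9, 86.7 and 130 against 66.5, 61.6 and 77.2 CPM. Their log2 fold changes were -0.35 ± 0.09, -0.47 ± 0.12 and -0.65 ± 0.16, and with the library set -0.20, -0.28 and -0.28.

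BAZ2B, a bromodomain protein of chromatin, was at 154, 142 and 155 CPM in control and 126, 116 and 119 CPM in spheres 500. BCL6, a transcriptional repressor, was at 76.1, 74.1 and 75.1 against 64.5, 56.7 and 60.7 CPM. ERN1, the IRE1 sensor of unfolded protein, was at 65.8, 73.3 and 84.7 against 56.4, 49.0 and 59.4 CPM. The log2 fold changes of BAZ2B, BCL6 and ERN1 with the library set were -0.25, -0.24 and -0.24. ZNF691, a zinc finger protein, was at 7.25, 8.71 and 6.85 against 3.07, 4.15 and 3.36 CPM. Its log2 fold change of -1.13 ± 0.28 was -1.11 ± 0.26 with the library set and -1.19 without control replicate 3, so that the value hardly moved with the way of comparing.

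Among the genes on the higher side, F2RL1, protease-activated receptor 2, which is cut and switched on by trypsin-like proteases, was at 45.4, 56.6 and 43.4 CPM in control and 72.9, 67.1 and 67.8 CPM in spheres 500. Its log2 fold change was 0.49 ± 0.12 (unadjusted p = 0.00273), and 0.35 ± 0.14 with the library set. PPP1R14B, an inhibitor of protein phosphatase 1, was at 26.5, 28.95 and 25.6 against 37.5, 36.1 and 40.2 CPM. All 3 exposed libraries lay above all controls for both genes.

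PARP2, a DNA damage sensor that makes poly(ADP-ribose), was at 18.3, 20.7 and 20.7 CPM in control and 28.9, 26.9 and 27.8 CPM in spheres 500 (log2 fold change 0.46 ± 0.13, and 0.43 with the library set). USP1, the deubiquitinase of the Fanconi anaemia pathway, was at 79.0, 79.0 and 68.5 against 101, 91.1 and 96.4 CPM. OCIAD2, a mitochondrial protein, was at 27.5, 24.3 and 25.4 against 32.1, 38.5 and 36.1 CPM. These 3 genes stood higher in every exposed library than in any control library. SLC9A3R1, now named NHERF1, a scaffold under the apical membrane, PTDSS1, which makes phosphatidylserine, and ZNF511, a zinc finger protein, had log2 fold changes of 0.43 ± 0.13, 0.33 ± 0.10 and 0.53 ± 0.15 (0.26, 0.25 and 0.39 with the library set).

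**Figure D2:**
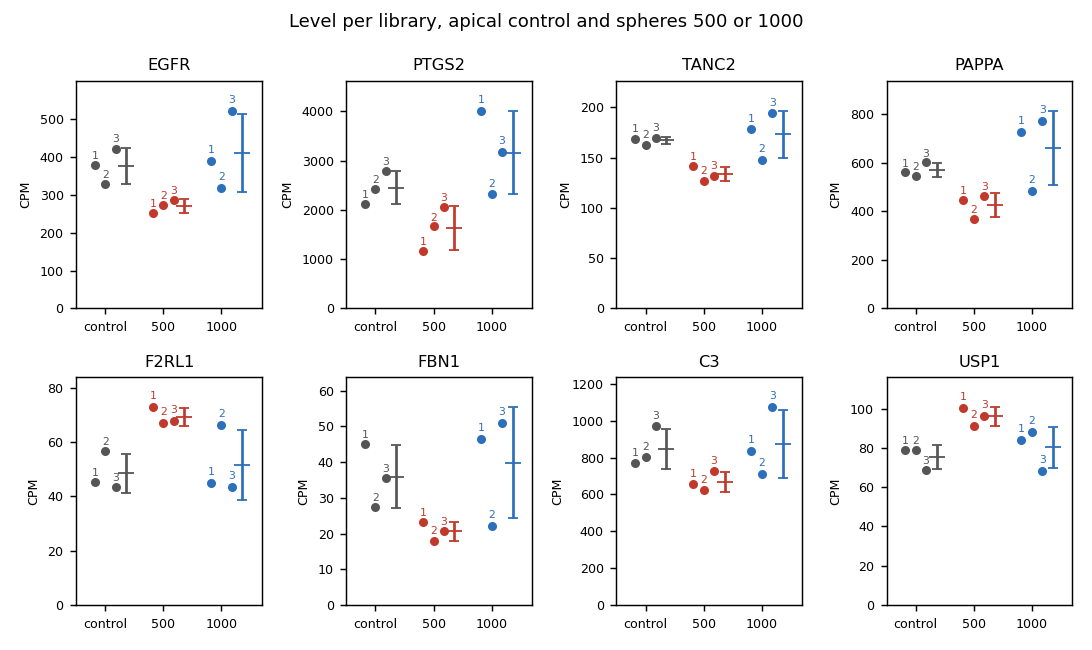
CPM per library (points, numbered by replicate) with the mean and SD (bars, n = 3) for 8 genes in apical control, spheres 500 and spheres 1000. The spheres 500 points of EGFR (252 to 286 CPM) lie below all control points (328 to 421 CPM), and those of F2RL1 (67.1 to 72.9 CPM) above them (43.4 to 56.6 CPM).

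The naming rule took 3 loci that had no read in all 3 libraries of one group and a mean of at least 4 CPM in the other. SMIM3, a small membrane protein (chr5:150777946-150796734), had 0 reads in the control libraries and 5.78, 6.11 and 1.75 CPM in spheres 500, at least 11.1-fold higher against a floor of 3 counts per library. DESeq2 gave it an adjusted p of 0.00027 and edgeR without the filter 3.78e-05, while edgeR's main test gave 1.00. Across the 21 apical libraries 15 had SMIM3 reads, with 0 of 3 in control and 2 or 3 of 3 in each particle group. The locus listed as KIAA0391_2, on chromosome 14 and under the same symbol as KIAA0391_1, stood at 8.20, 10.5 and 3.31 CPM in control. It was at 0 in spheres 500, at least 19.7-fold lower. Its adjusted p was 2.45e-06 in DESeq2 and 0.700 in edgeR's main test. KIAA0391_1 was at 53.02, 59.6 and 55.2 against 48.7, 62.8 and 61.6 CPM. How far the sequences of the 2 loci match was not tested. Their reads may have been split by the counting, so that the value of KIAA0391_2 is uncertain. CXCR5, a chemokine receptor of B cells, had no read in control and in spheres 500 replicates 1 and 2, and 12.8 CPM in spheres 500 replicate 3. It was not tested in the main fit, and 8 of the 21 apical libraries had CXCR5 reads.

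Genes of the NF-kB cytokine list, which includes the enzyme PTGS2, stood lower in spheres 500 on the whole. Replicate 1 of spheres 500 was the lowest library for nearly all those named here. Of 18 tested members 16 were lower, 1 of them at an unadjusted p under 0.05 (background 1.84%), where 49.3% of all genes were above 0. The median log2 fold change was -0.41, beside -0.00 over all genes. The summed level was 7149, 10501 and 12938 CPM in control and 3818, 8345 and 9574 CPM in spheres 500, so that the groups overlapped. The median was -0.01 without spheres 500 replicate 1, -0.08 without control replicate 3 and -0.09 with the library set. Within the first set it was -1.11, with 1 of 18 members higher, and within the second set 0.03, with 11 of 18 higher.

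Among the neutrophil-attracting chemokines whose promoters are printed above, CXCL8, interleukin 8, was at 698, 986 and 1702 CPM in control and 254, 918 and 1065 CPM in spheres 500. CXCL1 was at 692, 1299 and 1679 against 229, 956 and 1224 CPM. CXCL5 was at 3034, 4913 and 5593 against 1880, 3959 and 4268 CPM. The groups overlapped for each, replicate 1 was lowest in both groups, and the log2 fold changes were -0.62 ± 0.64, -0.63 ± 0.70 and -0.44 ± 0.40 (-0.19, -0.35 and -0.21 with the library set).

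CXCL2 stood at 241, 301 and 285 CPM in control and 113, 279 and 290 CPM in spheres 500, and CXCL3 at 96.7, 121 and 130 against 35.8, 119 and 116 CPM. CXCL6 was at 4.39, 10.3 and 12.3 against 1.72, 6.23 and 6.71 CPM. IL6, the cytokine of the acute phase, stood at 5.53, 12.05 and 13.5 against 0.861, 10.7 and 13.8 CPM. For CXCL2, CXCL3 and IL6 only spheres 500 replicate 1 lay under the control range. IL1B, the inflammasome product, was at 63.9, 120 and 286 against 23.9, 124 and 160 CPM, a log2 fold change of -0.64 ± 0.87 that became 0.07 with the library set.

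**Figure D3:**
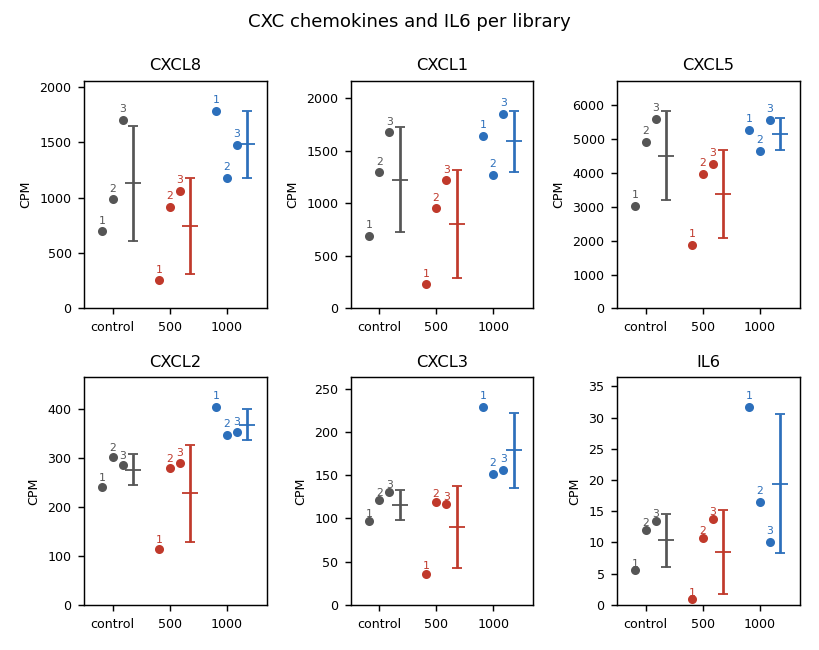
CPM per library (points, numbered by replicate) with the mean and SD (bars, n = 3) for 5 CXC chemokines and IL6 in apical control, spheres 500 and spheres 1000. Replicate 1 of spheres 500 is the lowest point in every panel, at 254 CPM for CXCL8 and 0.861 CPM for IL6.

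PTGS2, the inducible prostaglandin synthase, was the list member whose groups did not overlap. It stood at 2123, 2435 and 2796 CPM in control and 1167, 1664 and 2069 CPM in spheres 500. The log2 fold change was -0.61 ± 0.22 (unadjusted p = 0.0290), -0.35 ± 0.36 with the library set and -0.49 without control replicate 3. Within the first set it differed by -0.86 and within the second by -0.38.

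The list of NF-kB subunits and feedback inhibitors, which also held other genes such as ICAM1 and TNFAIP2, followed the cytokine list. Of 17 members 16 were lower and 0 stood at an unadjusted p under 0.05, and 3 did not overlap between the groups (background 3.42%), with a median log2 fold change of -0.45. NFKB2, the p100 subunit, was at 139, 142 and 196 CPM in control and 69.0, 122 and 136 CPM in spheres 500. TNFAIP2, a target of tumour necrosis factor, was at 1045, 1072 and 1802 against 439, 923 and 1004 CPM. NFKBIB, an inhibitor that holds NF-kB in the cytoplasm, was at 29.9, 31.7 and 35.9 against 26.1, 28.8 and 27.9 CPM. ICAM1, the leukocyte adhesion receptor, BIRC3, an inhibitor of apoptosis, and REL, a subunit, overlapped between groups, with log2 fold changes of -0.77 ± 0.39, -0.63 ± 0.36 and -0.39 ± 0.19 (-0.27, -0.31 and -0.21 with the library set). The list median was -0.21 without spheres 500 replicate 1, -0.18 without control replicate 3 and -0.15 with the library set.

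Interferon response genes did not stand on one side. Of 35 members 19 were higher and 16 lower, 0 at an unadjusted p under 0.05, with a median log2 fold change of 0.01. RSAD2, the antiviral enzyme viperin, was at 21.6, 18.5 and 6.97 CPM in control and 32.5, 22.3 and 29.7 CPM in spheres 500, with no overlap. MX1, an antiviral GTPase, was at 40.1, 49.6 and 55.8 against 23.4, 69.99 and 72.6 CPM, so that replicate 1 lay under all controls and the other two above. IFI44L followed the same order, at 3.05, 4.25 and 7.80 against 2.95, 9.69 and 11.3 CPM. The list median was 0.29 with the library set, with 34 of 35 members above 0 (48.2% of all genes). It was 0.16 without control replicate 3, with 26 of 35 above 0, and within the sets it was -0.42 in the first and 0.36 in the second.

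Endothelial markers stood higher in spheres 500 at low levels. Of 18 listed genes that were found, 12 passed the filter on low counts and 2 of these stood at an unadjusted p under 0.05 (background 1.4%). A marker near 0 in control could pass that filter only through the spheres 500 libraries, so nothing is read from the count of those that passed, and the sum over the list, which needs no filter, is given instead. EMCN had no read. The summed level was 51.3, 60.3 and 71.9 CPM in control and 78.7, 135 and 95.1 CPM in spheres 500, with no overlap (exact permutation p = 0.1, the smallest possible, and 0.3 adjusted over 6 marker lists). In the basolateral control, which holds the endothelial line, the sum was 3614 ± 420 CPM (SD, n = 3), so that the apical sums were 1.42 to 1.99% of it in control and 2.18 to 3.74% in spheres 500. Within the first library set the apical sum was 51.3 CPM in control against 78.7 in spheres 500, and within the second 60.3 against 135 and 95.1 CPM. In a bulk library, more cells of a type and more RNA per cell cannot be told apart.

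CDH5, the cadherin of endothelial junctions, was at 1.14, 4.35 and 7.56 CPM in control and 4.43, 24.3 and 12.4 CPM in spheres 500, and at 821 CPM in the basolateral control. ESAM, an endothelial adhesion molecule, was at 0.572, 0.607 and 0.236 against 1.48, 3.23 and 2.15 CPM, and EGFL7, a secreted endothelial factor, at 10.7, 7.49 and 7.91 against 15.4, 11.2 and 13.7 CPM. The groups overlapped for CDH5 and not for ESAM and EGFL7. Control had the lowest CDH5 mean of all apical groups, 4.35 CPM. Spheres 500 had 13.7 CPM, and the other particle groups 8.94 (stars 1000) to 17.3 CPM (rods 500). KDR, a receptor of vascular endothelial growth factor, was at 0, 0.607 and 3.54 against 2.09, 6.69 and 3.76 CPM, and VWF, the von Willebrand factor, at 0, 1.82 and 4.02 against 3.81, 6.57 and 3.89 CPM. ECSCR, a regulator of endothelial movement, had a log2 fold change of 1.49 ± 0.66 (1.68 with the library set). Not all markers rose. ERG was at 29.9, 21.6 and 10.2 against 29.1, 25.4 and 20.7 CPM, and ENG at 5.53, 10.4 and 20.4 against 10.5, 13.1 and 13.2 CPM. Both overlapped between the groups, with log2 fold changes of 0.28 ± 0.35 and -0.04 ± 0.42 (0.15 and 0.33 with the library set). CD34 was lower, at 1.66% of its mean basolateral control level in control and 1.32% in spheres 500.

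Some matrix genes stood higher as well. MMP1, interstitial collagenase, was at 4.77, 11.4 and 15.1 CPM in control and 9.96, 62.6 and 51.0 CPM in spheres 500, 0.667% and 2.63% of its mean basolateral level. LAMA4, the laminin chain of vessel walls, was at 3.24, 12.2 and 13.2 against 15.4, 50.5 and 19.3 CPM, 0.496% and 1.47% of it. SPARC, a collagen-binding matricellular protein, was at 1.91, 5.26 and 8.98 against 5.41, 18.3 and 12.5 CPM, 0.991% and 2.22% of it. CCN1, a matricellular YAP target, had a log2 fold change of 0.70 ± 0.34 (0.83 with the library set). For MMP1 too control had the lowest mean of all apical groups, 10.4 CPM. Spheres 500 had 41.2 CPM, and the other particle groups 21.8 (stars 500) to 42.9 CPM (rods 500). The part of the endothelial markers in these values was not tested.

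**Figure D4:**
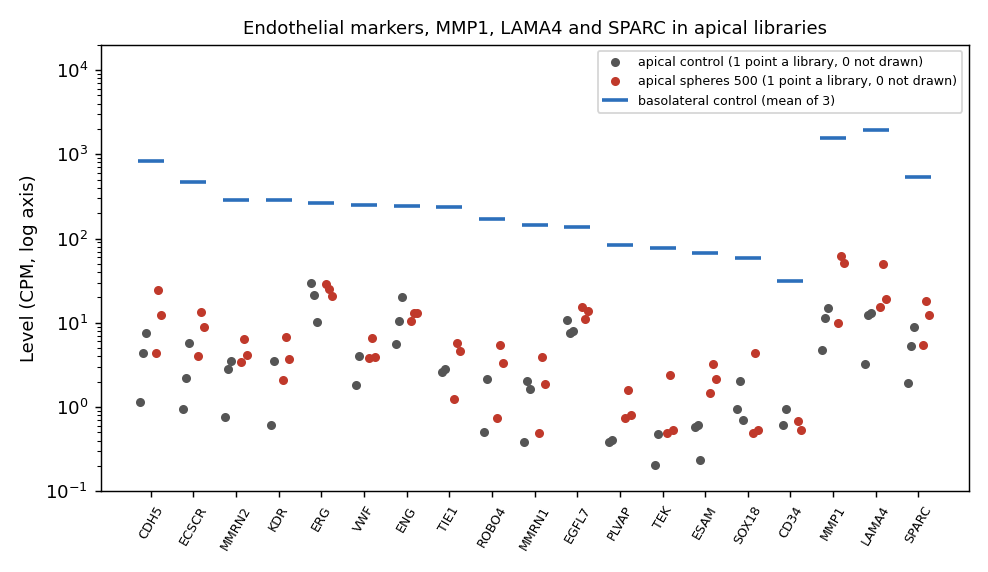
CPM on a log axis for endothelial markers with reads in both apical groups and for MMP1, LAMA4 and SPARC, with 1 point for each apical control and spheres 500 library (zeros not drawn) and the mean basolateral control level as a bar. The spheres 500 points of ESAM and EGFL7 lie above all their control points, those of ERG and ENG do not, and every point lies below the bar of its gene, as for CDH5 at 4.43 to 24.3 CPM against 821 CPM.

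Of 27 tested members of the matrix and integrin list 21 were lower, 2 of them at an unadjusted p under 0.05 (background 1.84%), with a median log2 fold change of -0.14 (-0.01 with the library set and -0.03 without control replicate 3). LAMC1, the laminin gamma 1 chain, was at 464, 485 and 573 CPM in control and 442, 430 and 439 CPM in spheres 500. ITGA2, the collagen-binding integrin chain, was at 181, 157 and 199 against 167, 137 and 135 CPM. LAMC1 and ITGA2 with the library set were at -0.07 and -0.06. Tight and adherens junction genes had 15 of 19 lower, with JUP, plakoglobin, at -0.26 ± 0.15 (-0.07 with the library set), and a median of -0.13 (-0.03 with the library set and -0.02 without control replicate 3).

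Growth and early response genes were mixed. Besides EGFR, the EGFR family list with its ligands and feedback genes had 16 of 21 lower, 1 at an unadjusted p under 0.05, and a median of -0.07 (-0.04 with the library set and 0.01 without control replicate 3). Immediate early genes had 9 of 18 on each side, with a median of 0.01 (-0.00 with the library set and 0.02 without control replicate 3), and FOSL2, a subunit of AP-1, was at 243, 230 and 264 CPM in control and 195, 213 and 223 CPM in spheres 500. KLF4, a transcription factor, had a log2 fold change of -0.42 ± 0.19 and MYC of 0.23 ± 0.12, and with the library set the 3 genes were at -0.12, -0.25 and 0.08.

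Protease receptors and coagulation genes, the list of F2RL1, had 7 of 15 higher and 8 lower, 2 and 1 at an unadjusted p under 0.05, with a median of -0.01 (-0.00 with the library set and 0.03 without control replicate 3). PROCR, the receptor of protein C, was at 33.9, 40.5 and 35.1 CPM in control and 44.4, 56.5 and 49.4 CPM in spheres 500. THBD, thrombomodulin, which with PROCR activates protein C, was at 43.9, 48.0 and 59.7 against 30.6, 42.4 and 42.3 CPM. PLAU, urokinase, had a log2 fold change of -0.38 ± 0.17, which was -0.04 with the library set. PROCR and THBD, partners in one pathway, thus stood on opposite sides, each without overlap between the groups, and with the library set they were at 0.23 and -0.24.

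Complement and acute phase genes had 12 of 19 lower, 1 at an unadjusted p under 0.05, with a median of -0.07 (-0.02 with the library set and -0.06 without control replicate 3). C3, the hub of complement, was at 768, 802 and 972 CPM in control and 656, 622 and 728 CPM in spheres 500, a log2 fold change of -0.37 ± 0.12 (-0.17 with the library set). Cell death and inflammasome genes had 15 of 18 lower and 0 at an unadjusted p under 0.05, with a median of -0.16 (-0.02 with the library set and -0.03 without control replicate 3). NLRP3, the inflammasome sensor, BCL2A1, a survival protein and NF-kB target, and MLKL, the executor of necroptosis, did not overlap between groups, with log2 fold changes of -0.43 ± 0.21, -0.65 ± 0.33 and -0.21 ± 0.11 (-0.27, -0.29 and -0.16 with the library set).

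Metal and oxidative stress genes showed little. MTF1, the zinc sensor that switches on metallothioneins, was at 54.9, 55.1 and 65.8 CPM in control and 36.6, 45.4 and 49.1 CPM in spheres 500, a log2 fold change of -0.45 ± 0.15 (unadjusted p = 0.0133; -0.30 with the library set). The metallothionein and zinc transport list had 3 of 10 tested members higher and 7 lower, with a median of -0.06 (-0.01 with the library set and 0.03 without control replicate 3). NRF2 targets had 16 of 29 higher and 13 lower, with a median of 0.02 and ABCC3, an efflux pump, at -0.23 ± 0.10 (-0.09 with the library set). Xenobiotic metabolism genes had 8 of 15 higher, with a median of 0.01 and CYP24A1, the vitamin D hydroxylase, at -0.29 ± 0.14 (-0.18 with the library set). The p53 targets had 12 of 20 lower, with a median of -0.02 and BAX, the pore former of apoptosis, at -0.23 ± 0.14 (-0.30 with the library set). The medians of the NRF2, xenobiotic and p53 lists with the library set were 0.01, 0.02 and -0.02, and without control replicate 3 they were 0.07, 0.05 and 0.04.

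Protein folding genes had 17 of 22 lower, 2 at an unadjusted p under 0.05 (background 1.84%), with a median of -0.07 (-0.06 with the library set and -0.02 without control replicate 3). CHAC1, a glutathione-degrading enzyme of the integrated stress response, was at 6.87, 3.04 and 8.03 CPM in control and 2.46, 3.23 and 1.61 CPM in spheres 500, with overlap at control replicate 2. SDF2L1, an endoplasmic reticulum chaperone partner, was at 12.97, 11.9 and 12.6 against 7.25, 10.95 and 7.79 CPM, and DNAJC3, an inhibitor of the eIF2alpha kinases, had -0.23 ± 0.10. CHAC1, SDF2L1 and DNAJC3 with the library set were at -0.88, -0.61 and -0.15. Heat shock genes had 8 of 14 higher, with a median of 0.01 (-0.01 with the library set and 0.04 without control replicate 3), and HSPE1, the mitochondrial co-chaperonin, was at 66.6, 61.0 and 58.8 against 76.5, 76.4 and 72.5 CPM.

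Uptake and storage genes, those nearest to the handling of particles, lay close to 0. Uptake and endocytosis genes had 10 of 24 higher and 14 lower, 0 at an unadjusted p under 0.05, with a median of -0.04 (-0.02 with the library set and 0.01 without control replicate 3). CLTC, the clathrin heavy chain, was at 988, 920 and 881 CPM in control and 895, 761 and 816 CPM in spheres 500, and AP2A1, a subunit of its adaptor, had -0.18 ± 0.09, and with the library set they were at -0.10 and -0.17. Lysosomal genes had 16 of 23 lower, 1 at an unadjusted p under 0.05 (background 1.84%), with a median of -0.09 (-0.01 with the library set and 0.01 without control replicate 3). NPC1, which exports cholesterol from lysosomes, was at 118, 98.2 and 99.5 against 97.2, 88.2 and 88.6 CPM, and ATP6V0D1, a proton pump subunit, had 0.32 ± 0.15, and with the library set they were at -0.11 and 0.26. Scavenger and phagocytic receptors had 10 of 13 lower, with a median of -0.15 (-0.04 with the library set and 0.07 without control replicate 3), and CD36 at -0.43 ± 0.27 (-0.19 with the library set).

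Cholesterol synthesis genes had 19 of 21 lower, 2 at an unadjusted p under 0.05 (background 1.84%), each by little, with a median of -0.07 (-0.05 with the library set and -0.06 without control replicate 3). SREBF2, the transcription factor of the pathway, was at 178, 187 and 194 CPM in control and 183, 144 and 156 CPM in spheres 500, with overlap at spheres 500 replicate 1 and a log2 fold change of -0.24 ± 0.10 (-0.17 with the library set). Fatty acid and lipid droplet genes had 12 of 17 lower, with a median of -0.07 (-0.04 with the library set and 0.00 without control replicate 3) and ACSL4, which activates arachidonic acid, at -0.18 ± 0.11 (-0.11 with the library set). Hypoxia and glycolysis genes had 13 of 19 lower, 3 at an unadjusted p under 0.05 (background 1.84%), with a median of -0.10 (0.01 with the library set and -0.08 without control replicate 3). With the set as a term 9 of 19 were lower, 0 at an unadjusted p under 0.05. VEGFA, the angiogenic ligand, was at 105, 89.0 and 110 against 82.1, 82.9 and 88.8 CPM, and NDRG1 and SLC2A1, the glucose transporter, had -0.42 ± 0.17 and -0.31 ± 0.13. These 3 with the library set were at -0.12, -0.17 and -0.10.

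Ribosomal protein and proliferation genes stood slightly higher. Of 20 ribosomal protein genes 18 were higher, 3 at an unadjusted p under 0.05 (background 1.4%), and 11 did not overlap between the groups (background 6.37%), with a median of 0.13 (0.03 with the library set and 0.09 without control replicate 3). RPL11, which also binds MDM2, was at 87.5, 80.4 and 73.9 CPM in control and 131, 99.7 and 98.6 CPM in spheres 500, and RPLP1 and RPL13 had 0.29 ± 0.11 and 0.20 ± 0.09 (0.09 and 0.13 with the library set). Ribosomal protein genes have many processed pseudogenes, whose share of the reads is not known here. Of 25 proliferation genes 22 were higher, 1 at an unadjusted p under 0.05 (background 1.4%), with a median of 0.16 (0.03 with the library set and 0.06 without control replicate 3). PLK1, a mitotic kinase, was at 62.9, 68.7 and 56.8 against 72.9, 80.1 and 74.1 CPM, and TYMS, thymidylate synthase, had 0.34 ± 0.17 (0.16 with the library set).

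Mitochondrially encoded genes had 12 of 13 higher and 0 at an unadjusted p under 0.05, with a median of 0.20 (0.24 with the library set and -0.08 without control replicate 3). Within the first set 0 of 13 were higher, with a median of -0.45, and within the second 13 of 13, with a median of 0.37. Their sum was 18731, 12176 and 7767 CPM in control and 13920, 13674 and 17619 CPM in spheres 500, so that every exposed library lay inside the control range. MT-ND2, a subunit of complex I, had a log2 fold change of 0.30 ± 0.25 (0.32 with the library set). Nuclear and host noncoding RNAs had 5 of 12 higher, with a median of -0.02 (-0.05 with the library set and -0.20 without control replicate 3), and SNHG6, a host of small nucleolar RNA, was at 32.8, 32.5 and 20.7 against 40.6, 38.2 and 37.2 CPM.

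Mast cell markers had 11 of 11 tested members higher, with a median of 0.46 that was 0.04 with the library set and -0.04 without control replicate 3. The library sets were cut on KIT, a member of this list, so the value with the set cannot serve as a check of it. TPSAB1, a tryptase, was at 86.0, 55.3 and 13.8 CPM in control and 131, 50.3 and 59.6 CPM in spheres 500. The summed level was 1073 ± 707 and 1335 ± 520 CPM (SD, n = 3; exact permutation p = 0.7, 0.7 adjusted). Fibroblast markers summed to 9.996 ± 1.22 against 7.37 ± 0.206 CPM (exact permutation p = 0.1, 0.3 adjusted) and lymphocyte markers to 6.31 ± 2.34 against 4.89 ± 0.820 CPM (exact permutation p = 0.4, 0.6 adjusted), with 2 tested members in each list, all lower, where the set as a term left 1 of the 2 lymphocyte markers lower.

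**Figure D5:**
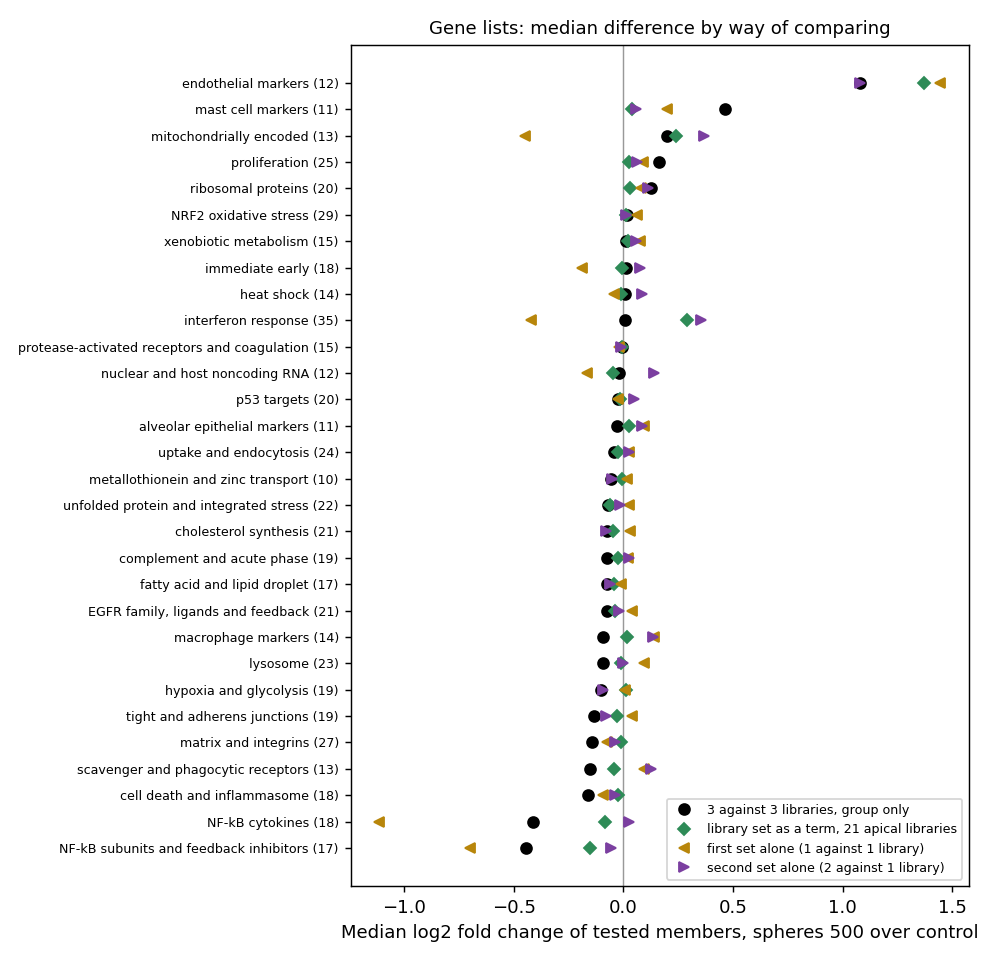
Median log2 fold change of the tested members of 30 gene lists (number tested in brackets), spheres 500 over control, from 3 against 3 libraries (circles), with the library set as a term (diamonds) and within the first or second set alone (triangles). NF-kB cytokines lie at -1.11 in the first set and 0.03 in the second, and mitochondrially encoded genes at -0.45 and 0.37. The endothelial median covers markers that passed the filter in part through spheres 500.

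Spheres 500 was also compared with spheres 1000, the same particle shape at the larger number, with no control library in the test. Again 0 genes were called, of 14054 (0.0%), with edgeR's quasi-likelihood test, and 287 higher (2.04%) and 506 lower in spheres 500 (3.6%) stood at an unadjusted p under 0.05. The groups did not overlap for 8.12% of genes on the higher and 4.61% on the lower side, and 52.2% of log2 differences were above 0. DESeq2, which gave an adjusted p to 1793 genes, called 7, all lower in spheres 500. These were PTGS2 (adjusted p = 0.0074), PAPPA, PARP14, an interferon-induced ADP-ribosyltransferase, PDE4B, a phosphodiesterase of cyclic AMP, ROBO1, a guidance receptor, and MTRNR2L2 and MTRNR2L8. The fit with no filter called 5, higher HIST1H4K, a histone H4 gene, and lower MT-ND3, MTRNR2L2, NBPF6 and RP11-290L1.3. The MTRNR2L, histone and NBPF genes have near-identical copies, so that their counts are uncertain. Spheres 1000 replicates 1, 2 and 3 belonged to the first, the second and the third library set, as in control.

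NF-kB genes stood lower in spheres 500 than in spheres 1000. This held for 18 of 18 tested members of the cytokine list (median log2 fold change -0.81, 1 at an unadjusted p under 0.05). It also held for 17 of 17 members of the list of subunits and inhibitors (median -0.69, 10 at an unadjusted p under 0.05). The background at that threshold was 3.6% of genes. With the library set as a term the medians were -0.65 and -0.41, with 0 and 3 genes at an unadjusted p under 0.05. In that fit 414 of all 15225 genes were lower at this threshold. Without spheres 500 replicate 1 the medians were -0.46 and -0.42. PTGS2 was at 4011, 2314 and 3172 CPM in spheres 1000, above all 3 spheres 500 libraries, a log2 difference of -0.99 ± 0.26 (unadjusted p = 0.00604, adjusted p = 0.838 in edgeR). PAPPA was at 725, 485 and 770 CPM in spheres 1000 (log2 difference -0.67, unadjusted p = 0.00457). EGFR was at 390, 317 and 521 CPM in spheres 1000, also with no overlap, a log2 difference of -0.64 (unadjusted p = 0.00561). With the library set as a term the differences were -0.76 ± 0.36 for PTGS2, -0.44 ± 0.18 for PAPPA and -0.34 ± 0.16 for EGFR (unadjusted p = 0.057, 0.0313 and 0.045 in edgeR).

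Interferon response genes were lower in spheres 500 than in spheres 1000 for 31 of 35 (median -0.62, 12 at an unadjusted p under 0.05), and mitochondrially encoded genes for 13 of 13 (median -0.55, 12 at an unadjusted p under 0.05). With the library set the medians were -0.33 and -0.51, with 4 and 2 genes at an unadjusted p under 0.05, where 414 of all 15225 genes were lower. Ribosomal protein genes were higher for 19 of 20 (median 0.25), with a median of 0.15 with the library set and 0.27 without spheres 500 replicate 1. The summed endothelial markers were 103 ± 29.04 CPM in spheres 500 and 86.5 ± 12.8 CPM in spheres 1000 (SD, n = 3), a difference within the spread between libraries. Over all genes the median was 0.01.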

How the data were processed

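The deposited values are whole-number read counts per gene, not normalized, for 57773 genes, 29633 of them without a read in the whole series. Per the labels' protocols, stranded libraries were made from total RNA cleaned with a QIAGEN kit. The submitters' processing notes name the build GRCh38.p13. For the aligner, counter, annotation and strand setting, nothing is given in the sources used here. Positions came from GENCODE 29, which held 90.6% of the gene identifiers. Even numbers made up 68.2 to 71.2% of counts from 1 to 20 in the 6 libraries.

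Counts were tested in edgeR 4.0.16 (R 4.3.3; robust quasi-likelihood, TMM, filterByExpr, group only), with calls below 0.05 after Benjamini-Hochberg adjustment. CPM was computed from raw library totals. The test was checked on simulated data (8 false among 119 calls). Alternatives were other scalings, DESeq2 1.42.0, limma-voom (limma 3.58.1), other filters, halved counts, wider fits, blocks and leaving out libraries. Library sets were parted at the widest gaps of KIT. Members, 32 gene lists and tests were chosen with earlier results of these data known. The naming rule took up to 12 genes in each direction by p with no overlap and an average log2 CPM of at least 1, the 5 list members of smallest p, 3 markers by level, genes called by DESeq2 or without the filter, genes at 0 in 1 group with a mean of at least 4 CPM in the other, and a fixed set. SPARC, KDR, VWF, MX1, IFI44L, BIRC3, IL1B, CXCL2, CXCL3, LY75-CD302, and CD14 and the genes called only against spheres 1000, were named after their values were seen. Of 613 listed genes 612 were found, 9 under an older symbol, and PECAM1 was not. Within-set ratios were added after seeing the data. Reads from genes that overlap on opposite strands could not be told apart here. Not all genes that this rule takes are printed, and 1 of them is not reported here.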

Additional observations from a re-analysis of the deposited data

How the results depend on the processing

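Between spheres 500 and control no gene was called in edgeR's quasi-likelihood test (458 at an unadjusted p under 0.05) under RLE, upper quartile or no scaling, limma-voom, a filter of 1 CPM in 3 libraries, halved counts, or any fit over all apical groups. DESeq2 and the fit with no filter called 2 genes each, SMIM3 and KIAA0391_2, and leaving out 1 library gave 0 to 1 calls, the 1 being the readthrough locus LY75-CD302 without control replicate 1. Against spheres 1000, DESeq2 called 7 genes, the fit with no filter 5, and leaving out 1 library gave 0. Lower genes made up 56.8% of those at an unadjusted p under 0.05, and 46.6% with upper quartile and 42.3% with no scaling.

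The replicate numbers were checked by the correlation of same-numbered libraries' deviations from their group means, 0.380, 0.0379 and 0.202 for replicates 1, 2 and 3. They were not taken as pairs, since the labels do not say what a replicate number shares. Replicate 1 of both groups lay in the same library set and replicate 3 in different sets, so these correlations cannot settle that. Replicates 1 and 3 of spheres 500 correlated best with their own number, and replicate 2 did not. With the replicate block 0 genes were called and 1051 stood at an unadjusted p under 0.05 (0 and 1253 against spheres 1000). Without the block 458 and 793 genes stood at that threshold.

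Named genes kept their sign apart from these, for which the cause was not tested. The library sets were cut on KIT, so its own value with the set is no check. The log2 fold change was -0.019 for KIT, -0.056 for LYZ, 0.14 for CD14 and 0.065 for IL1B with the library set, and -0.027 for MX1 in limma-voom. With only the shared sets it was 0.010 for CD36 and -0.058 for MT-ND2 (spheres 500 replicates 1 and 2) and 0.13 for CD14 (replicates 1 and 3). Leaving out 1 library gave -0.085 to 0.96 for KIT, -0.87 to 0.21 for IL6, -0.30 to 0.063 for CD14, -0.52 to 0.035 for CXCL2, -0.62 to 0.012 for CXCL3, -1.12 to 0.13 for IL1B and -0.086 to 0.54 for MX1. The differences in summed marker levels moved by no more than the pooled SD of the groups in all 42 alternatives tried. Direction was not part of that check. The mast cell sum changed direction without control replicate 3 and without spheres 500 replicate 1. With 3 libraries a group, differences of 1.5-fold or less were mostly beyond reach. In the simulation 10 of 67 genes changed 1.5-fold and 42 of 67 changed 2-fold were recovered.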
